A study of Nematostella vectensis with 10 samples.

Results

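The genes described here are 5 published cnidocyte genes of the sea anemone *Nematostella vectensis* that are known only by a gene-model name beginning with NVE. They are *NVE26200* (NV2.23901), *NVE5730* (NV2.21271), *NVE13546* (NV2.22446), *NVE15732* (NV2.24307) and *NVE17236* (NV2.10392). They were chosen by name, not by a cutoff on any measured value, although earlier results of these data were known. The names come from the study's list of 42 published cnidocyte genes, of which 38 carry a gene number. That list also holds *NVE15733* and *NVE3843*, which are given below with its other genes. The genes described here are 5 of the 24520 genes in the deposited files. Their names were the only annotation available, so no function is assigned to any of them. The list gives *NVE5729* as the older identifier of the gene it names *NVE5730*, and the values below belong to NV2.21271. *NVE5730* and *NVE17236* have 3 annotated transcripts each and the other genes have 1 each, which makes 9 of the 35819 transcripts quantified.

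Poly(A) RNA was sequenced from whole wild-type gastrulae collected 28 hours post fertilization (hpf) and raised at 24 °C. The 5 knockdown libraries come from embryos injected with a single shRNA against *Nvznf845*, and the 5 control libraries from embryos given a control shRNA that the labels call a scramble RNA. Each library pools about 1000 injected embryos. Knockdown and control libraries with the same number carry the same batch label and are called pairs here, and pairs 4 and 5 share 1 batch. An shRNA lowers a transcript through the embryo's own RNA interference machinery and does not delete the gene.

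Cnidocytes are the stinging cells of cnidarians. Each builds a pressurized capsule in its secretory pathway, with a wall rich in minicollagens and a coiled tubule that everts when the cell fires. In *Nematostella* these cells arise scattered through the ectoderm from the gastrula onward. *Nvznf845* encodes a zinc finger protein, and proteins of this kind commonly bind DNA. The comparison asks whether the NVE-named genes need *Nvznf845* for their expression in the gastrula. In RNA from whole embryos, fewer cnidocytes and less RNA per cnidocyte cannot be told apart.

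Total estimated counts were between 20848941 and 35960095 per knockdown library and between 18891111 and 49293261 per control library. The 10 most abundant genes took 6.24% to 67.4% of these counts after knockdown and 6.99% to 56.0% among controls, the largest shares being in both libraries of pair 3, so levels are given as CPM, counts scaled to a common library size with TMM factors. *Nvznf845* itself was at 11.5% to 22.7% of its control within the 5 pairs, and no knockdown library reached any control library. Transcripts of the capsule genes *ncol3* (388 CPM), *Ngal* (217 CPM), *ncol4* (115 CPM), *ncol1* (67.4 CPM), *mcol1* (66.7 CPM) and *Ncol* (2.85 CPM) were all detected in the controls (mean, n = 5), so the gastrulae contained cnidocyte RNA. No genes of other cell types are named in the files, and a change in other cell types was not tested.

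After *Nvznf845* knockdown, 3 of the 5 genes fell, *NVE13546*, *NVE15732* and *NVE5730*, and the results of the other genes were less certain. *NVE17236* was lower in all 5 pairs but did not pass the test, which left the pairing out. With the replicate number in the fit it did pass (adjusted p = 0.0163 from edgeR). *NVE26200* had too few counts to enter the test. The quasi-likelihood test of edgeR was run on 19001 genes, which were called where the adjusted p was 0.05 or less and the log2 fold change 0.585 or more in either direction, the limits the study used. Of all genes tested, 5.43% were called, 4.23% lower and 1.21% higher, against 3 and 0 of the 4 genes tested here. At an unadjusted p under 0.05, all 4 were lower, as were 1363 of the 19001 genes.

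**Figure D1:**
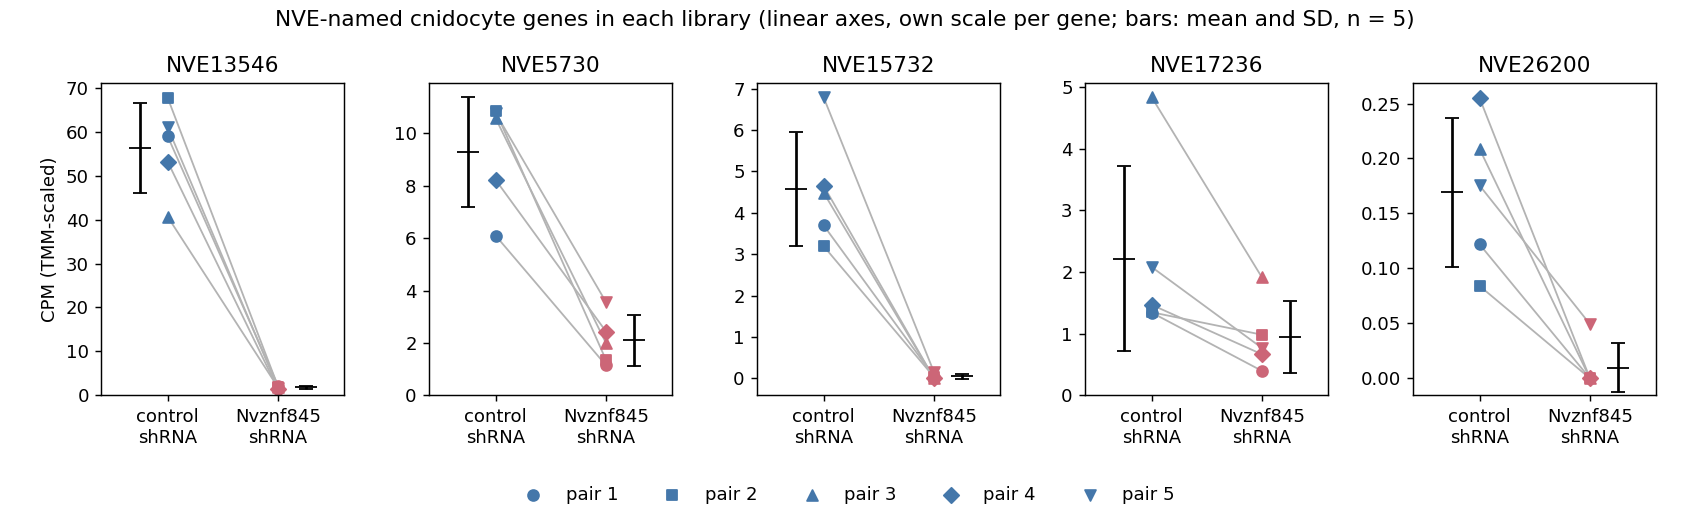
Level of each NVE-named gene in the 10 libraries, in TMM-scaled CPM on a linear axis of its own. Symbols mark the replicate number, grey lines join the control (blue) and *Nvznf845* shRNA (red) library of a pair, and black bars give the mean and SD (n = 5). Each line falls from control to knockdown, and only for *NVE17236* do the control and knockdown libraries overlap.

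*NVE13546* was the most abundant of the 5 and fell to a few percent of its control level. It stood at 59.0, 67.8, 40.7, 53.3 and 61.1 CPM in control replicates 1 to 5. In the knockdown replicates 1 to 5 it stood at 2.146, 1.96, 1.76, 1.36 and 1.61 CPM. The lowest control library was thus far above the highest knockdown library, and the knockdown libraries lay close together. The group means were 56.4 ± 10.2 CPM in controls and 1.77 ± 0.305 CPM after knockdown (SD, n = 5 each), and edgeR estimated a log2 fold change of −5.00 with a standard error of 0.183 (95% interval −5.40 to −4.60, adjusted p = 9.08e-09). Summed over the libraries, 234 counts after knockdown against 8339 in controls leave 3.10% of the control level (exact 95% limits 2.71% and 3.53%, which cover counting error alone). The gene's remaining share was narrow across pairs, from 2.56% in pair 4 to 4.32% in pair 3.

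*NVE15732* had the largest fall of the 4 genes tested. Control replicates 1 to 5 held 91, 76, 129, 146 and 271 counts, or 3.70, 3.20, 4.49, 4.66 and 6.79 CPM. Knockdown replicates 1 to 5 held 1, 1, 0, 0 and 6 counts, so 6 of its 8 knockdown counts lie in replicate 5. No knockdown library came near a control library, and 2 of them held no read of the gene. The level went from 4.57 ± 1.38 to 0.0449 ± 0.0609 CPM (SD, n = 5 each), and the log2 fold change from edgeR was −6.22 with a standard error of 0.510 (95% interval −7.34 to −5.10, adjusted p = 3.64e-06). By summed counts 1.24% of the control level remained (exact 95% limits 0.534% and 2.46%). With knockdown replicate 5 left out, the fitted log2 fold change was −7.47. The 95% intervals of *NVE15732* and *NVE13546* overlap, so the order of these falls is not settled.

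*NVE5730* fell by less and by amounts that differed between pairs. The control replicates 1 to 5 were at 6.10, 10.8, 10.6, 8.23 and 10.8 CPM. The knockdown replicates 1 to 5 were at 1.14, 1.34, 1.99, 2.43 and 3.56 CPM. The groups did not overlap, and the knockdown libraries of the batch shared by pairs 4 and 5 were the highest. By edgeR the log2 fold change was −2.14 with a standard error of 0.304 (95% interval −2.81 to −1.47, adjusted p = 0.000562), from 9.31 ± 2.1 to 2.09 ± 0.967 CPM (SD, n = 5 each). The interval lies apart from those of *NVE13546* and *NVE15732* and overlaps that of *NVE17236*. Within pairs the remaining level was 18.7%, 12.4% and 18.8% in pairs 1 to 3, and 29.6% and 33.0% in pairs 4 and 5. A fit of pairs 4 and 5 by themselves gave a log2 fold change of −1.67 (adjusted p = 0.00960 from edgeR). The batches of pairs 1, 2 and 3 hold 1 pair each, and a difference in response between batches was not tested. *Nvznf845* was at 22.1% and 18.5% of control in pairs 4 and 5 and at 18.4%, 22.7% and 11.5% in pairs 1 to 3.

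The estimated falls of the 3 transcripts of *NVE5730* differed, although the 95% intervals of transcripts 1 and 2 overlapped. Transcript 2, the longest at 4473 bases, carried 71.4% of the gene's estimated counts in controls (95% exact interval 69.0% to 73.8%) and 47.8% after knockdown (42.1% to 53.6%). These intervals pool the libraries and cover counting error alone. By library the share was 57.9% to 86.9% in controls and 30.2% to 75.5% after knockdown, so the groups overlapped. Transcript 2 fell by 2.79 on the log2 scale in an edgeR fit on transcripts (standard error 0.379, 95% interval of the log2 fold change −3.63 to −1.95, adjusted p = 0.000830). Transcript 1, of 2407 bases, was at 2.33 CPM in controls and 1.12 CPM after knockdown (means, n = 5 each), and was not called in the same edgeR fit (log2 fold change −1.06, 95% interval −2.26 to 0.14, adjusted p = 0.576). Most of the gene's fall thus sat in transcript 2. Of all transcripts tested, 3.32% were called lower and 0.691% higher. Among the 9 transcripts of the 5 genes, 6 could be tested, 3 were called lower, these being transcript 2 of *NVE5730* and the single transcripts of *NVE13546* and *NVE15732*, and none was called higher by edgeR, where the transcripts with an unadjusted p under 0.05 were the 3 called.

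The share of transcript 1 within *NVE5730* was 18.4%, 32.6%, 9.25%, 21.3% and 39.1% in control replicates 1 to 5. In the knockdown replicates 1 to 5 it was 24.5%, 69.8%, 64.0%, 56.7% and 47.9%. It was higher after knockdown in all 5 pairs, but the groups overlapped, because knockdown replicate 1 lay within the range of the controls. The mean share rose from 24.1% ± 11.8 to 52.6% ± 17.7 (SD, n = 5 each; two-sided exact permutation test, p = 0.0238, adjusted p = 0.0317 over the 3 transcripts of the gene). Transcript 2 moved the other way, from 73.4% ± 11.7 to 47.4% ± 17.7 (SD, n = 5 each; exact permutation p = 0.0317, adjusted p = 0.0317), a result that was lost on leaving out any 1 of 6 libraries (p = 0.0635). Salmon divides the reads of one gene among its transcripts by a model, and the knockdown libraries held only 26 to 144 counts of the gene, so these shares are less certain than the level of the gene.

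Transcript 3 of *NVE5730*, the shortest at 1699 bases, was found in all 5 control libraries and in no knockdown library. It had 36.8 estimated counts in controls, 2.63% of the gene (95% exact interval 1.87% to 3.63%). At that share, 7.95 counts would fall to it among the gene's counts summed over the 5 knockdown libraries. There 0 were estimated, which by counting error alone allows a share of up to 1.21%. The part of Salmon's division of so few reads in these zeros was not tested. With 0 counts after knockdown, the exact 95% upper limit is 11.6% of the control level, which also covers the counting error of the controls. It had too few counts for the edgeR fit on transcripts. Its estimated share differed between the groups in a test that left the pairing out (exact permutation p = 0.00794, the smallest that 5 against 5 unpaired libraries can give, adjusted p = 0.0238 over the 3 transcripts).

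**Figure D2:**
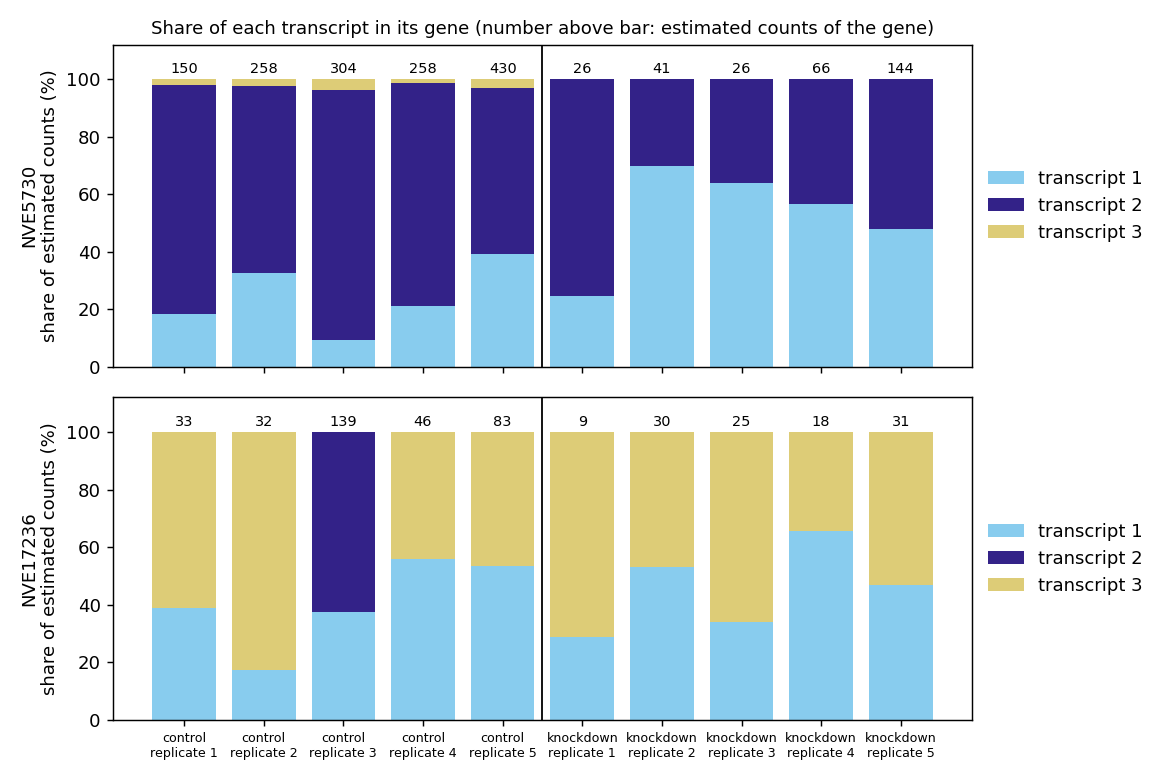
Share of each annotated transcript in the estimated counts of its gene, in percent, for *NVE5730* (top) and *NVE17236* (bottom) in every library, with the gene's estimated counts above each bar. In *NVE5730* the share of transcript 1 is 9.25% to 39.1% in controls and 24.5% to 69.8% after knockdown, and in *NVE17236* transcript 2 appears in control replicate 3 alone.

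*NVE17236* was lower after knockdown in every pair, without passing the test. It was at 1.34, 1.35, 1.47 and 2.08 CPM in control replicates 1, 2, 4 and 5, and at 4.84 CPM in control replicate 3. The knockdown replicates 1 to 5 were at 0.394, 0.981, 1.91, 0.663 and 0.765 CPM. On this scale both libraries of pair 3 were the highest of their group. There knockdown replicate 3 exceeded 3 of the control libraries, so the groups overlapped. In deposited TPM, a length-corrected abundance without TMM factors, knockdown replicate 3 (0.273) lay below all controls (0.397 to 1.108). The groups still overlapped in TPM, through knockdown replicate 2 (0.434). Control replicate 3 (1.108) was then closer to control replicate 5 (0.924). In CPM the remaining level within pairs was 29.4%, 72.9%, 39.5%, 45.2% and 36.8%. The edgeR estimate was a log2 fold change of −1.29 with a standard error of 0.473 (95% interval −2.33 to −0.25, adjusted p = 0.201), and the two-sided exact permutation test of the group means, 2.215 ± 1.5 and 0.943 ± 0.580 CPM (SD, n = 5 each), gave p = 0.0556. Pairing the libraries by replicate number in the fit changed the call, with a log2 fold change of −1.21 and an adjusted p of 0.0163 from edgeR.

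In control replicate 3, the library with the high value of *NVE17236*, most of the gene's counts were given to 1 transcript. Transcript 2, the longest at 5007 bases, was given 87.0 of the 139 counts in that library and 0 in each of the other 9 libraries. In the same library transcript 3 (4959 bases) was given 0 counts, although it was found in all 9 others. Transcript 1 (4325 bases) was found in all 10 libraries, with 17.3% to 56.0% of the gene's counts in controls and 28.7% to 65.4% after knockdown. It too had its largest control count in replicate 3, 52.1 against 5.54 to 44.3 in the other controls. The division of reads between transcripts 2 and 3 was not tested. The summed count of the gene was a whole number, within 0.0005, in 8 of the 10 libraries, while in no library were the counts of its 3 transcripts all whole. With transcript 2 left out of the sum, an alternative chosen after the data were seen, the log2 fold change of *NVE17236* was −0.83 (adjusted p = 0.305 from edgeR), and with the replicate block as well it was −0.91 (adjusted p = 0.163). Leaving it out takes counts from control replicate 3 alone, so a smaller fall was fixed in advance. How stable the fall is cannot be read from these 2 fits. With both libraries of pair 3 left out the gene was called lower, at −1.15 without the block (adjusted p = 0.0491) and −1.18 with it (adjusted p = 0.0392, from edgeR).

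*NVE26200* was close to the limit of detection. Control replicates 1 to 5 held 3, 2, 6, 8 and 7 counts, and knockdown replicates 1 to 5 held 0, 0, 0, 0 and 2. All 5 control libraries lay above all 5 knockdown libraries once scaled for size, at 0.0841 to 0.255 CPM against 0 to 0.0494 CPM. The two-sided exact permutation test gave p = 0.00794, the smallest possible here with the pairing left out. The knockdown level was 8.51% of control by summed counts (exact 95% limits 0.978% and 34.0%). The coefficient of variation among the controls, 40.2%, was not larger than the 44.5% that counting alone gives at this depth. All its counts were whole numbers. Without the count filter, edgeR gave a log2 fold change of −3.23 (adjusted p = 0.0265). DESeq2 gave −3.45 (adjusted p = 0.0396), a call it lost with the replicate block (−3.64, adjusted p = 0.146). Without knockdown replicate 5 no count remained after knockdown, with an exact 95% upper limit of 24.2% of the control level.

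**Figure D3:**
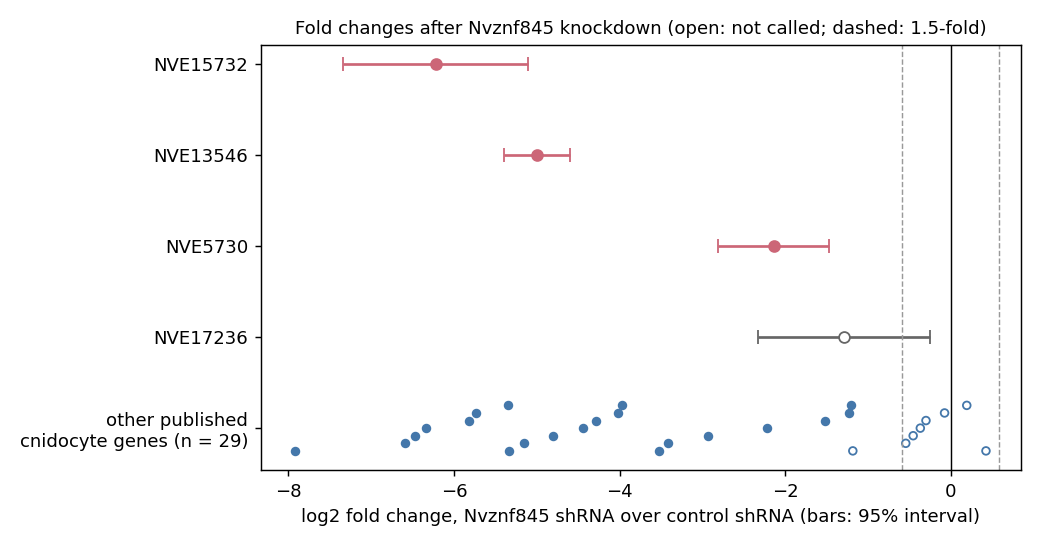
Log2 fold change (*Nvznf845* shRNA over control shRNA) of the 4 NVE-named genes tested, with 95% intervals from edgeR, above the same value for the 29 other published cnidocyte genes tested. Filled symbols were called and open symbols were not, and dashed lines mark 1.5-fold. *NVE15732* (−6.22) and *NVE13546* (−5.00) lie beyond the median of the other genes (−3.52), *NVE5730* (−2.14) and *NVE17236* (−1.29) short of it.

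The other genes of the published list give the range in which these falls lie. Besides the 5 genes and *Nvznf845*, 32 genes have a number and 29 could be tested. Of these, 21 were called lower and none higher by edgeR, with none at an unadjusted p under 0.05 in the higher direction. Their median log2 fold change was −3.52, against −3.57 over the 4 NVE-named genes tested and 0.0099 over all 19001 genes tested. The largest fall among them was that of the minicollagen gene *Ncol* (−7.92) and the smallest called one that of *CALM3-like* (−1.20), named after the calcium-binding protein calmodulin. All 5 collagen genes of the list were called lower, while of its 15 transcription factor genes 7 were called (median log2 fold change −1.18) and 8 were not, which are all the uncalled genes among the 29. The 2 further genes with NVE names, *NVE15733* (log2 fold change −6.47) and *NVE3843* (−4.81), were called lower as well.

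The levels of the 5 genes in control gastrulae spanned a wide range. Per kilobase of effective transcript length, *NVE13546* was at 17.1 ± 3.12 CPM (SD, n = 5), above 77.6% of all tested genes on this scale. *NVE15732* and *NVE5730* followed at 2.97 ± 0.900 and 2.85 ± 0.796 CPM per kilobase. *NVE17236* was at 0.500 ± 0.335 and *NVE26200* at 0.455 ± 0.170 CPM per kilobase. These values form 3 steps. *NVE13546* exceeded *NVE15732* in all 5 control libraries, by 5.76-fold on the means, and *NVE5730* exceeded *NVE17236* in all 5, by 5.70-fold, without overlap in either case. Within the middle and the lowest step the ranges overlapped, and the order changed with the scale or with the library left out.

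**Figure D4:**
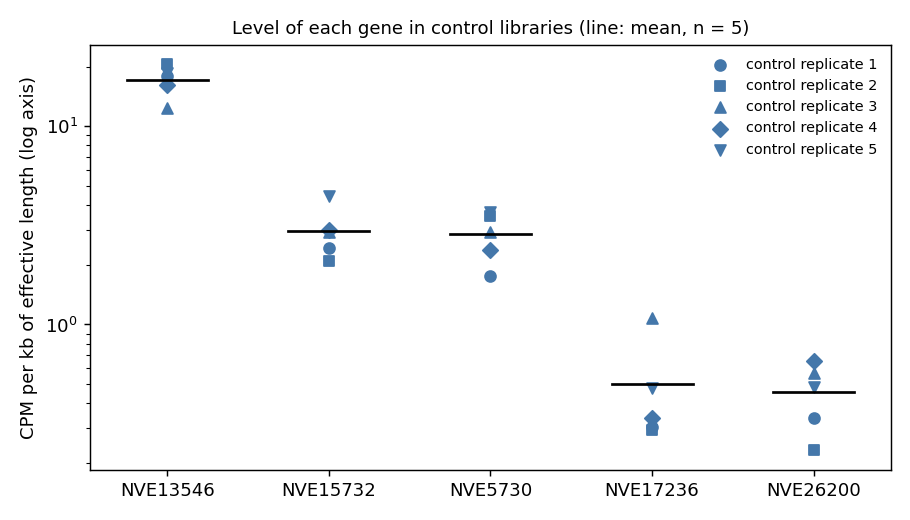
Level of each NVE-named gene in the 5 control libraries, in TMM-scaled CPM per kilobase of effective length on a log axis, with symbols for the replicates and a line for the mean. *NVE13546* (mean 17.1) stands above *NVE15732* and *NVE5730* (2.97 and 2.85), and these above *NVE17236* and *NVE26200* (0.500 and 0.455).

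After knockdown the order of the mean levels was different. *NVE5730* was now the highest at 0.749 ± 0.344 CPM per kilobase, *NVE13546* was at 0.536 ± 0.0932 and *NVE17236* at 0.214 ± 0.128 (SD, n = 5 each). The ranges of these genes overlapped. In knockdown replicates 1 and 2 *NVE13546* was above *NVE5730*, at 0.653 and 0.595 against 0.335 and 0.532. *NVE17236* reached 0.426 in knockdown replicate 3, above the lowest value of *NVE13546* (0.413) and of *NVE5730* (0.335). *NVE15732* and *NVE26200* were at 0.0293 ± 0.0396 and 0.0268 ± 0.0599 CPM per kilobase. Their highest values, 0.0964 and 0.134 in knockdown replicate 5, lay above the lowest of *NVE17236* (0.0879 in replicate 1). *NVE13546*, which stood far above the others in controls, thus no longer did so.

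Across the 10 libraries, the genes most like each NVE-named gene were found by Pearson's correlation of log2(CPM + 1), which follows the difference between the groups as well as the spread within them and is given as a description. *NVE13546* was most like NV2.20325 and NV2.24358 (r = 1.00 for both, and 0.95 and 0.90 after the group means were removed), and among the published genes most like *ggt* (r = 1.00, 0.79 within groups), named after gamma-glutamyl transferase, an enzyme that acts on glutathione. For *NVE15732* the closest were NV2.9682 and NV2.15638 (r = 1.00 and 0.99) and, among the published genes, the paired-box transcription factor gene *NvpaxA* (r = 0.99, 0.39 within groups). Such values are common, since 556 genes for *NVE13546* and 445 for *NVE15732* correlated above 0.95, and any gene that nearly disappears after knockdown scores high.

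*NVE5730* was most like NV2.16903 and NV2.17239 (r = 0.97 for both, 0.76 and 0.72 within groups), which had log2 fold changes of −2.09 and −2.50. *ANTR2-like* was the closest published gene (r = 0.94). With the 2 libraries farthest from the median left out, these 3 correlations were 0.96, 0.96 and 0.95. *NVE17236* was most like NV2.15046 and NV2.2261 (r = 0.97 and 0.95), whose own log2 fold changes were small, −0.44 and −0.21. Without control replicate 3 and knockdown replicate 1, the libraries farthest from the median, these values were 0.87 and 0.75. *SoxA*, a Sox family transcription factor gene, was its closest published gene (r = 0.78, and 0.56 without those libraries). Between *NVE5730*, *NVE13546*, *NVE15732* and *NVE17236* themselves, the correlations within groups ran from −0.64 to 0.28.

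Several genes with numbers next to an NVE-named gene were also lower after knockdown. Of 10 such neighbours, 7 could be tested, and 3 were called lower, against 4.23% of all genes. These were NV2.23902 next to *NVE26200* (log2 fold change −4.20, adjusted p = 3.07e-07 from edgeR), NV2.24308, which is *NVE15733*, next to *NVE15732* (−6.47, adjusted p = 1.58e-06), and NV2.10391 next to *NVE17236* (−3.68, adjusted p = 9.33e-05). NV2.21272 next to *NVE5730* and NV2.22447 next to *NVE13546* had too few counts to be tested, and kept 9.43% and 3.25% of their control counts per effective library size. *NVE26200*, *NVE15732* and *NVE17236* thus had 1 neighbour each that was called lower. For *NVE5730* and *NVE13546* the low neighbour was not tested, and how common such falls are among all untested genes was not counted. The other neighbours tested had log2 fold changes between −0.27 and 0.059 and were not called. Salmon's estimated count of a gene need not be whole where reads are divided between genes. Before rounding, the count was whole, within 0.0005, in 10 of the 10 libraries for *NVE26200*, in 9 for *NVE15732* and in 8 for *NVE17236*. It was whole in 3 libraries for *NVE13546* (up to 0.485 from a whole number in the others), in none for *NVE5730* (up to 0.433) and in 6 for *NVE15733* (up to 0.39). A whole count can also arise where reads are given to 1 gene entirely, and the part of read sharing in these falls was not tested. The files give numbers but no positions, and the distance between neighbours was not analysed here.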

How the data were processed

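The authors used the Galaxy web service and the Nvec200 genome. Salmon is named in the submitters' processing notes, its version not being given in the sources used here. Reads were 150 bases long. The deposited estimated counts per transcript need not be whole, since Salmon divides shared reads, and the deposited TPM values (each transcript's length-corrected abundance) come from the same files and were used in alternatives only. Libraries were grouped by title. For this report the transcripts of each gene number were summed and rounded. The test was that of edgeR 4.0.16 under R 4.3.3 (TMM, filterByExpr with a minimum of 10 counts, robust glmQLFit, glmQLFTest, Benjamini-Hochberg over all genes tested), without covariates. Standard errors follow from the log2 fold change and the F statistic. Transcripts were fitted in the same way. limma 3.58.1 (also voom) and DESeq2 1.42.0, the study's own tool, served as alternatives. Exact intervals, shares and floors cover counting error only, and PCR copies are not independent molecules. The test was tried on simulated data.

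The replicate numbers pair the libraries, since libraries that share a number also share a batch label and the study describes its replicates as paired. The deviations from the group means correlated at 0.602, −0.108, 0.147, 0.220 and 0.726 in pairs 1 to 5. Whether the study's model used the pairing is not stated, and the unpaired fit was made the main one. The exact permutation tests also left the pairing out, since they exchanged labels among all libraries, and no paired version of them was run. Libraries are separate pools of embryos, so that p-values reflect variation among pools. No library duplicated another of its group (median chi-square per gene 1.45 to 220 between libraries of a group).

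The members, the lists and the tests were chosen with earlier results of these data known. Genes named are the 5 members and their transcripts, the nearest gene number on either side of each, the 2 genes and the 1 published gene most correlated with each tested member, the published genes with the largest and smallest called change, the capsule genes, *Nvznf845*, *NVE15733* and *NVE3843*. Names come only from the study's list. None of the 24520 gene numbers and none of the NVE names matched the reference table (assembly jaNemVect1.1), so no positions are given. Other knockdowns of the study were not used here.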

Additional observations from a re-analysis of the deposited data

Results flagged for a closer look

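In 22 groups of 5 libraries (gene levels of the 5 genes and transcript shares of *NVE5730* and *NVE17236*), 3 values stood apart from the other 4 libraries of their group by Dixon's criterion. For normally distributed values, chance alone marks about 1 in 20 groups, a rate that need not hold for low counts or shares. Where the other 4 libraries are all at 0, any value above 0 is marked. This holds for transcript 2 of *NVE17236* and for *NVE26200* below. *NVE17236* was at 4.84 CPM in control replicate 3, against 1.34 to 2.08 CPM in the other control libraries. In deposited TPM it was at 1.108 there, against 0.397 to 0.924. In the same library its transcript 2 took 62.6% of the gene's counts, against 0 in the other 4. *NVE26200* was at 0.0494 CPM in knockdown replicate 5, from 2 counts, against 0 in the other knockdown libraries. The cause of these values was not tested.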

How the results depend on the processing

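The number of the 5 genes called was 3 or 4 under every alternative run. *NVE5730*, *NVE13546* and *NVE15732* stayed called lower in all 29 alternatives of each, with log2 fold changes of −2.44 to −1.34, −5.27 to −3.90 and −7.47 to −2.38, the smallest sizes being on log2(TPM + 1), which understates falls of low genes. *NVE17236* was called lower in 5 of 30 alternatives. These were the replicate block (−1.21), the batch block (−1.21), DESeq2 with the replicate block (−1.22) and the fits without pair 3 (−1.15, and −1.18 with the block, chosen after the data were seen). With single libraries left out its value ran from −1.66 to −0.79 (adjusted p = 0.0707 to 0.407 from edgeR). *NVE26200* fails the edgeR filter, so log2 ratios of its summed counts per effective library size were used when single libraries were left out. They ran from −3.69 to −2.45, the latter with the knockdown group set to a floor of 3 counts. DESeq2 with the replicate block lost the call of *NVE26200* (−3.64, adjusted p = 0.146). The replicate block changed no other call of the 5 genes. limma-voom, the TPM fit, the edgeR fits with a block, the minimum of 1 CPM in 5 libraries, the length offsets and the fit within 1 batch gave no value for *NVE26200*, and the TPM fit none for *NVE17236*, since they fail the filters there.

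Shares of *NVE5730* transcripts, left out after the data were seen, changed by 24.1 to 35.4 percentage points for transcript 1, by −33.0 to −21.6 for transcript 2 (exact permutation p = 0.0159 to 0.0635) and by −2.77 to −2.14 for transcript 3 with single libraries left out. Without pairs 2, 3, 4 or 5 the change was 26.2, 21.9, 26.7 and 33.4 points for transcript 1 and −23.7, −19.7, −23.9 and −31.0 for transcript 2, with exact permutation p between 0.0571 and 0.114 where the smallest possible is 0.0286.

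Over all genes 803 were lower and 229 higher. Single libraries left out gave 747 to 859 lower and 153 to 258 higher. Higher genes were 21 with library size alone, 38 on log2(TPM + 1), 349 with the batch block, 113 within 1 batch, and 126, 139 and 118 without pairs 1, 4 and 5. The ratio of the control levels of *NVE17236* and *NVE26200* was 1.10 per effective length and 1.76 per annotated length. The ratio of *NVE15732* to *NVE5730* was 1.04, and 0.96 per annotated length. The causes were not tested.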
